A study of Mus musculus with 64 samples.

Results

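The genes described here encode the proteins of the cytosolic ribosome, in hippocampus and prefrontal cortex of Tg2576 and wild-type mice given vehicle or a phosphodiesterase inhibitor. Members were taken by symbol: every gene of the deposited matrix named as a large-subunit (Rpl) or small-subunit (Rps) protein, together with Rpsa and the stalk proteins, and without the S6 kinases and pseudogenes. This gave 49 of 18193 named genes: 22 of the large subunit, 21 of the small subunit and 6 paralogs (Rpl3l, Rpl7l1, Rpl22l1, Rpl39l, Rps4l and Rps27l). Each gene was read from 1 probe set, the one with the highest mean log2 intensity over the 64 arrays. Of the 49 members, 46 lay above the filter on low values and were tested; Rpl3l, Rpl39l and Rps16 lay below it.

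A cytosolic ribosome carries one copy of nearly every ribosomal protein on a scaffold of ribosomal RNA, and the small subunit reads the mRNA while the large subunit joins the amino acids. Most of these mRNAs are abundant in every cell and begin with a tract of pyrimidines, through which mTOR signalling controls their translation. In neurons they are found in the cell body and also in dendrites and axons.

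The mice were 4 months old, of the B6SJLF1 background, and carried or lacked the Tg2576 transgene, a mutant human amyloid precursor protein. That transgene is driven by prion protein gene sequences, so it is expressed widely in the brain and not in one cell type, and the wild-type mice were littermates without it. For 28 days a minipump delivered vehicle or PF-04447943, which blocks the enzyme PDE9A and so slows the breakdown of cyclic GMP. The 2 regions, 2 genotypes and 2 treatments made 8 groups with 8 arrays each, and the study's design gives 8 mice a group. Bulk tissue was measured, so fewer cells of a type and less RNA per cell cannot be told apart.

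Values are log2 of the deposited RMA intensity, on which a difference of 0.10 is a change of about 7%. An intensity depends on the probes as well as on the mRNA, so each gene is compared only with itself between groups. Differences were tested with limma over all genes above the filter, and a gene was called where its Benjamini-Hochberg adjusted p was under 0.05. The array medians were between 90.9 and 100.7 in intensity units. The regional labels matched their markers: dentate granule cell genes were 5 of 6 higher in hippocampus (median log2 difference 2.73), CA pyramidal genes 5 of 5 higher (1.30) and cortical layer genes 6 of 7 lower (−2.13). The prefrontal cortex arrays differed widely in striatal markers, whose summed intensity ran from 2690 to 23600. The genotype labels were not checked against a probe for the human transgene.

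Coverage of the family was partial. Of 77 canonical ribosomal protein genes, 43 had a probe set of their own, 27 were named only in probe sets that list several genes, and 7 in neither. Among the members' chosen probe sets, 30.6% carried the suffix _x_at or _s_at, which marks probes that can bind related transcripts, against 8.29% of the chosen probe sets of all genes. Ribosomal protein genes have many processed pseudogenes and close copies, so such probe sets may read more than one locus.

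The starts of 9 members that differed between the regions are shown first, from 20 bases before to 10 bases after the annotated start. Capitals mark the longest pyrimidine run reaching within 5 bases of the start. The runs of Rpl27a (20 bases) and Rps26 (9 bases) continue past the printed end. Rps4l and Rpl8 had no promoter entry. They are RefSeq sequences of GRCm38.p6, read on the gene's strand. Rps6 is from chr4:86857358-86857387 (minus strand), Rps27l from chr9:66946066-66946095 (plus), Rps26 from chr10:128626497-128626526 (minus), Rps28 from chr17:33824553-33824582 (minus) and Rplp2 from chr7:141447631-141447660 (plus). Rpl27a is from chr7:109519175-109519204 (plus), Rpl4 from chr9:64173367-64173396 (plus), Rpl37a from chr1:72711240-72711269 (plus) and Rpl6 from chr5:121204481-121204510 (plus). The first 5 were higher in hippocampus and the other 4 were lower.
Rps6: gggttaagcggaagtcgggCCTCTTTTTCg
Rps27l: cctctccaCTCCTCCCCgccgcctctatcc
Rps26: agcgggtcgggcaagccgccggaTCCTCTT
Rps28: tcctgggtaccgcgtgcggTCTCgcgagag
Rplp2: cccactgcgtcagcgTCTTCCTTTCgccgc
Rpl27a: cgcgagacttcgtgagCTCCTCCCTTTTCC
Rpl4: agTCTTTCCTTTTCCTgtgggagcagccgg
Rpl37a: gtcacttccgctcgccggTCTaaaaccgcg
Rpl6: gatcttggtcaCCTCCCgtcattgcttata

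Promoter sequences were given for 43 of the 49 members and for 27025 genes in all. A run of at least 8 pyrimidines reaching within 5 bases of the start was present in 18 of the 43 members (41.9%) and in 11% of all genes. The longest run spanned 21 bases, in Rpl7a. Long and short runs occurred on both sides of the regional difference: 7 of 14 members higher in hippocampus had such a run, 2 of 6 members lower there, and 9 of 20 members that were not called. In the 300 bases around the start (250 before and 50 after), and on either strand, CCGGAAG, the core read by ETS-family factors such as GABPA, was found in 48.8% of members and 9.93% of all genes. AAGATGGC, read by YY1, was found in 9.30% of members and 3.19% of all genes, and TATAAA in 14% and 15.7%. CCGGAAG and AAGATGGC can share the letters AAG where they meet, and a match is a description of the sequence only.

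Between hippocampus and prefrontal cortex, over both genotypes and treatments, 25 of the 46 tested members differed (54.3%), 16 higher and 9 lower in hippocampus. Over all 12950 genes tested, 72.1% differed, 33.0% higher and 39.0% lower, and 79.5% of the 477 genes with a mean log2 of 12 or more. The members' differences were also small: the median size was 0.06 on the log2 scale, against 0.16 over all genes. Read from the chosen probe sets, only 3 members (6.52%) differed by at least 1.2-fold, against 29.4% of genes. No member separated the 32 hippocampal from the 32 cortical arrays without overlap, which 1.88% of genes did. Among the called members, 21 of 25 had one direction in all 4 genotype and treatment groups, and 23 of all 46 tested. The call rests on the mean of these same 4 groups, so agreement among called members is partly built in.

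By role, the small subunit had 8 members higher in hippocampus and 2 lower of 20 tested. The large subunit had 5 higher and 7 lower of 22. Of the 4 paralogs tested, 3 were higher and none was lower on the chosen probe sets. The other paralog, Rpl7l1, lay at −0.04 and was not called. A second probe set of Rpl7l1, of similar brightness (mean log2 8.49 against 8.68), was called lower at −0.31. When every array was centred on its own median, the split over all members was 11 higher and 12 lower in place of 16 and 9, so the balance of directions depends on how arrays are put on one scale. The 3′ minus 5′ log2 difference of the actin and Gapdh control probe sets, a measure of RNA quality, had group means of 0.05 to 0.09 in hippocampus and of 0.10 to 0.15 in prefrontal cortex. With it as a covariate 22 members were called, 15 higher and 7 lower, and Rps14 and Rpl41 were among those that lost their calls. Its part in the regional differences was not tested beyond this.

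**Figure D1:**
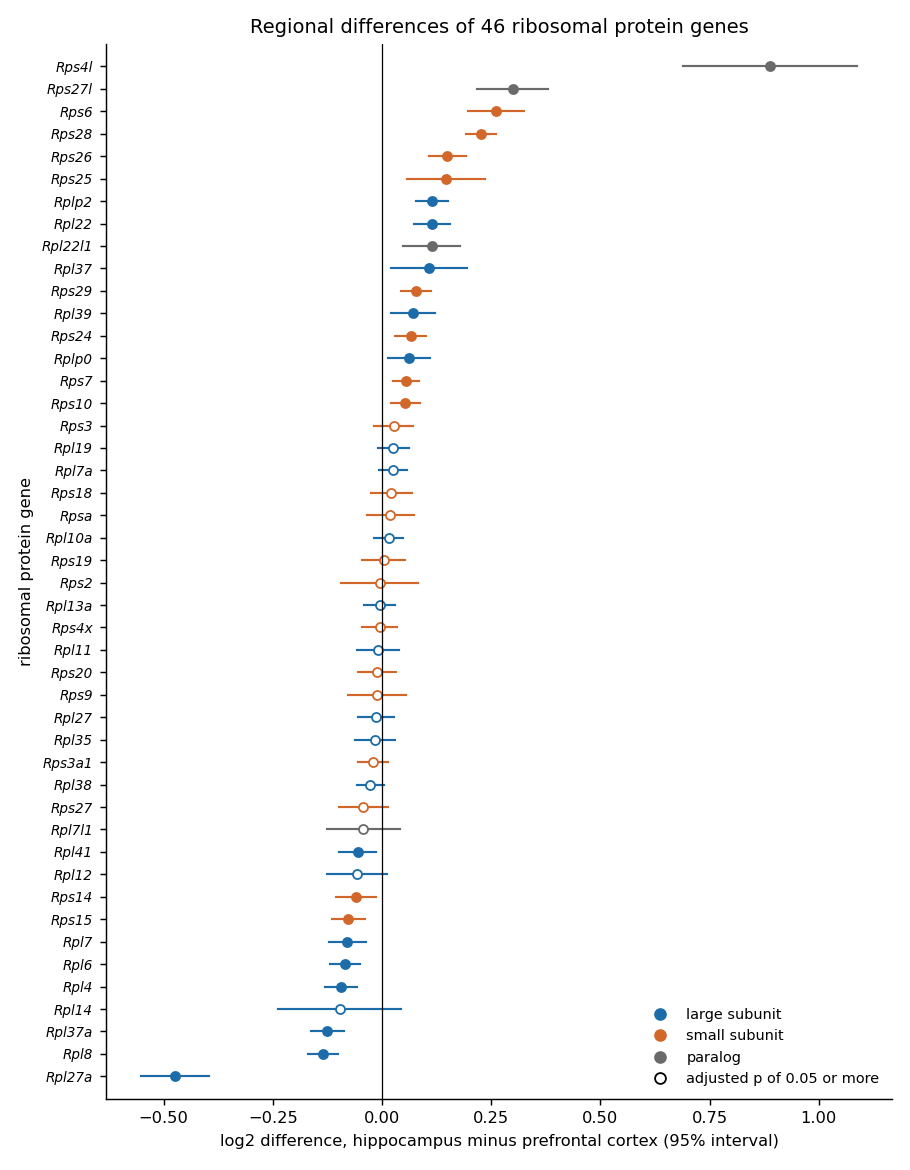
The log2 difference of each of the 46 tested ribosomal protein genes, hippocampus minus prefrontal cortex, with its 95% interval from limma; colour gives the subunit, and open points were not called. Rps4l stands apart at 0.89 and Rpl27a at −0.47, while most members lie within 0.15 of 0.

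The 3 members beyond 1.2-fold were Rps4l, Rps27l and Rpl27a. Rps4l, a paralog of the small-subunit gene Rps4x, ranged from 8.06 to 9.60 in hippocampus (median 8.92, 32 arrays) and from 7.02 to 8.84 in prefrontal cortex (median 8.06). Its hippocampal arrays were mostly high, 31 of 32 above the cortical mean of their genotype and treatment, but the ranges overlapped. The difference was 0.89 ± 0.10 (SE, limma adjusted p = 8.16e-12), or 1.85-fold, and it was 0.75 to 1.13 in the 4 genotype and treatment groups. Its spread within groups, an SD of 0.41, was the widest of all members, and its only probe set was dim (mean log2 8.47). Rps4x itself differed by −0.01 (95% interval −0.04 to 0.03).

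Rps27l, a paralog of Rps27 known as a target of p53, ranged from 9.27 to 10.21 in hippocampus (median 9.47) and from 9.02 to 9.52 in prefrontal cortex (median 9.23). All 32 hippocampal arrays lay above the cortical mean of their own group. The difference was 0.30 ± 0.04 (limma adjusted p = 3.00e-09), and its 3 probe sets gave 0.23 to 0.30, each called. Rps27, the small-subunit gene it resembles, differed by −0.04 (95% interval −0.10 to 0.01). Its only probe set was dim (mean log2 7.535), so this is a weak reading of Rps27.

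Rpl27a, a core protein of the large subunit read from a dim probe set (mean log2 8.03), ran the other way. It ranged from 7.52 to 8.06 in hippocampus (median 7.77) and from 7.83 to 8.59 in prefrontal cortex (median 8.29), and 0 of 32 hippocampal arrays lay above the cortical mean of their group. The difference was −0.47 ± 0.04 (limma adjusted p = 6.46e-17), or 0.720-fold. It was −0.40 in wild-type mice under either treatment, −0.50 in vehicle-treated and −0.59 in drug-treated Tg2576 mice.

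Among the other small-subunit members, Rps6, the protein phosphorylated by S6 kinases downstream of mTOR, ranged from 8.34 to 8.81 in hippocampus and from 8.07 to 8.61 in prefrontal cortex, a difference of 0.26 ± 0.03. The reading is from a dim probe set, with a mean log2 of 8.45. Rps28 had the smallest p of the family. It ranged from 13.49 to 13.67 in hippocampus and from 13.26 to 13.57 in prefrontal cortex, and all 32 hippocampal arrays were above their group's cortical mean. Its difference of 0.23 ± 0.02 (limma adjusted p = 3.34e-18) was matched by its other probe sets, at 0.24 and 0.26. Rps28 and Rps26 sit together where the mRNA leaves the small subunit, and Rps26 was higher by 0.15 ± 0.02, again in 32 of 32 arrays. Rps25, which takes part in initiation at internal entry sites, was higher by 0.15 ± 0.04, with 25 of 32 arrays above the mean. Its probe set was also dim (mean log2 8.005). Rps10, Rps29, Rps24 and Rps7 were higher by 0.05 to 0.08. All 6 probe sets of Rps10 and all 3 of Rps29 were called higher. Of the 5 tested probe sets of Rps24, by contrast, 2 lay below 0 and only the chosen one was called, and the other probe set of Rps7 lay at −0.03. Over the family, 12 of the 21 members with at least 2 tested probe sets had one direction in all of them. Rps15 (−0.08 ± 0.02) and Rps14 (−0.06 ± 0.02) were the small-subunit members lower in hippocampus.

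In the large subunit, the stalk proteins Rplp0 and Rplp2, which recruit elongation factors, were both higher in hippocampus, by 0.06 ± 0.02 and 0.11 ± 0.02. Rplp2 ranged from 12.98 to 13.33 there and from 12.92 to 13.17 in prefrontal cortex. Rpl22 and its paralog Rpl22l1 were both higher by 0.11, with SEs of 0.02 and 0.03, and all 3 probe sets of Rpl22 were called. Rpl39, a small protein lining the exit tunnel, was higher by 0.07 ± 0.03 on a dim probe set (mean log2 8.17). Rpl37 was called at 0.11 ± 0.04, but its difference was 0.35 in drug-treated wild-type mice and 0.02 to 0.04 in the other 3 groups.

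Lower in hippocampus were Rpl8, which lies near the peptidyl transferase centre (−0.14 ± 0.02, limma adjusted p = 4.52e-10), Rpl37a (−0.13 ± 0.02) and Rpl4 (−0.09 ± 0.02). Rpl8 ranged from 12.17 to 12.46 in hippocampus and from 12.30 to 12.62 in prefrontal cortex, and only 3 of 32 hippocampal arrays lay above their group's cortical mean. Rpl6, Rpl7 and Rpl41 were lower by 0.06 to 0.08. Rpl7 kept a difference of only −0.01, no longer called, when read without the _x_at and _s_at probe sets, and a bright second probe set of Rpl41 lay at 0.02. A bright second probe set of Rpl37a (mean log2 13) lay at −0.04 and was not called, while a dimmer one (8.53) was called at −0.16. Rpl11, which with Rpl5 can bind Mdm2, differed by −0.01 (95% interval −0.06 to 0.04), and Rpsa, also known as the laminin receptor, by 0.02 (−0.03 to 0.07).

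**Figure D2:**
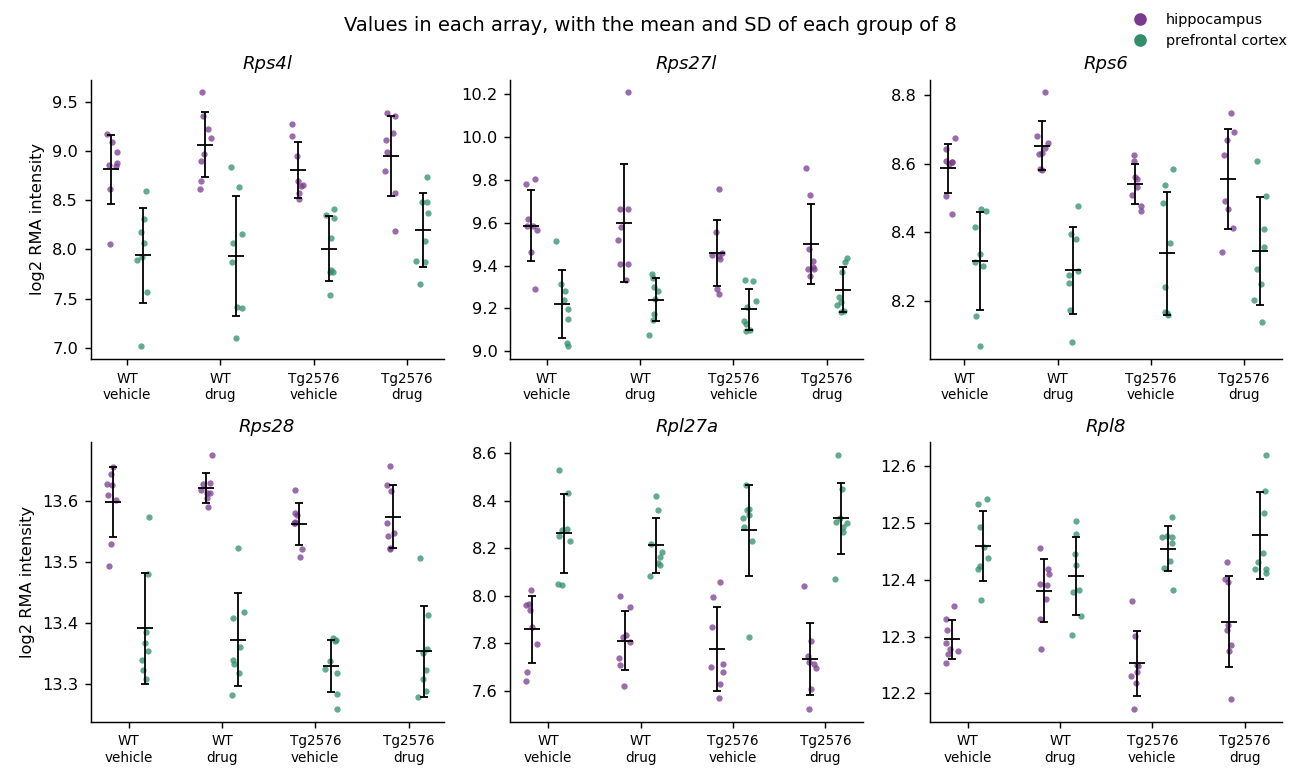
Log2 RMA intensity in each of the 64 arrays for 6 members, by genotype and treatment, with hippocampus in purple and prefrontal cortex in green; the bars are the mean and SD of 8 arrays. Rps4l, Rps27l, Rps6 and Rps28 were higher in hippocampus in all 4 genotype and treatment groups, and Rpl27a and Rpl8 were lower in all 4.

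In vehicle-treated wild-type mice alone, 13 of 46 members differed between the regions (28.3%, against 44.9% of genes), and all 13 were also called, in the same direction, over the 4 groups together; the comparisons share these arrays. Over all genes 21.1% were higher and 23.8% lower. The 7 members higher in hippocampus were Rps4l, Rps27l, Rps6, Rps28, Rps26, Rplp2 and Rpl22, at 0.10 to 0.87. The 6 lower were Rpl27a, Rpl8, Rpl37a, Rps15, Rpl7 and Rpl6. Probe sets that list several genes, at least one of them a ribosomal protein gene, were 36 of 102 higher and 27 lower in hippocampus, 61.8% against 68.3% of all probe sets.

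Oligodendrocyte markers (7 of 7 higher, median 0.69) and choroid plexus markers (5 of 5 higher, median 2.43) were also higher in hippocampus, and endothelial and striatal markers were lower (6 of 7 and 6 of 6). Of the 9 choroid plexus markers listed, 4 lay under the filter. The filter takes the mean over both regions, so a marker low in cortex passes it only where it is high in hippocampus. In vehicle-treated wild-type mice the summed intensity of the oligodendrocyte markers ran from 39600 to 50900 in hippocampus and from 32300 to 39600 in prefrontal cortex. That of the choroid plexus markers ran from 1700 to 44000 and from 387 to 1250. Their part in the regional differences of ribosomal protein genes was not tested.

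Genes that build ribosomes or share their control were set beside the members. Of 34 ribosome biogenesis genes tested, 6 were higher and 16 lower in hippocampus, with a median difference of −0.06 against −0.02 over all genes. They included Dkc1, the pseudouridine synthase of the nucleolus (0.41 ± 0.04), Sbds, which frees the large subunit for joining (−0.29 ± 0.03), and Gar1, a partner of Dkc1 (−0.27 ± 0.02). Translation factors whose mRNAs also start with a pyrimidine tract had 6 higher and 4 lower of 15. Pabpc1, the poly(A)-binding protein, had the largest difference among them (0.59 ± 0.03), followed by the initiation factor subunits Eif3h (−0.24 ± 0.02) and Eif3e (0.20 ± 0.02). Genes of the mTOR pathway and of the control of these mRNAs had 7 higher and 5 lower of 15, led by the translation repressor Eif4ebp2 (0.68 ± 0.04), Tsc2 (0.43 ± 0.03) and its partner Tsc1 (−0.37 ± 0.03). Fau, which encodes a small-subunit protein fused to a ubiquitin-like domain and lies outside the naming rule, was lower by 0.11 ± 0.02.

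For the transgene in hippocampus, averaged over both treatments, no member was called (0 of 46, limma), against 0.0926% of all genes, and 8 of 46 had an unadjusted p under 0.05 (17.4%, against 8.13% of genes). The members nonetheless lay to one side: 45 of 46 were below 0, with a median of −0.05, while 50.4% of all genes were below 0 with a median of 0.00. Under vehicle 42 of 46 lay below 0 (median −0.04), and under the drug 45 of 46 (median −0.06), with 0 of 46 called in either (limma; 0.00772% and 0% of genes) and 2 and 5 members at an unadjusted p under 0.05. In some comparisons, here and below, a count at an unadjusted p stands without the share of all genes. Such a count cannot be read as an excess, since that share was 8.13% in the averaged comparison. Each member's difference over both treatments was small, from −0.19 to 0.01. Members are not independent readings of the genotype, because they varied together between arrays of one group: with group means removed, the median correlation of 2 members was 0.33 over the 32 hippocampal arrays, and 87.2% of pairs were above 0. The 444 other genes of a mean log2 of 12 or more had a median correlation of 0.05.

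The 5 members with the smallest p were Rplp2, Rps10, Rpl22, Rps19 and Rpl37. Rplp2 ranged from 13.09 to 13.23 in vehicle-treated wild-type mice (median 13.18) and from 12.98 to 13.19 in vehicle-treated Tg2576 mice (median 13.09). Under the drug it ranged from 13.19 to 13.33 (median 13.24) in wild-type and from 13.07 to 13.27 (median 13.13) in Tg2576 mice. The Tg2576 arrays were mostly the lower ones, 13 of 16 below the wild-type mean of their treatment, but the groups overlapped. Its difference was −0.09 ± 0.03 (limma adjusted p = 0.319). Rps10, which binds at the small-subunit head, differed by −0.08 ± 0.03, Rpl22 by −0.08 ± 0.03 and Rps19, the gene most often mutated in Diamond-Blackfan anaemia, by −0.09 ± 0.03. Rpl37 had the largest difference, −0.19 ± 0.07, with 15 of 16 Tg2576 arrays below the wild-type mean. The other members named by rule lay between −0.11 (Rps27l) and −0.02 (Rpl7l1), among them Rpl7 (−0.05), Rpl11 (−0.05), Rps6 (−0.07), Rplp0 (−0.03) and Rpsa (−0.02), and none was called.

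In prefrontal cortex the transgene comparison, again with 0 of 46 members called against 0.0464% of genes, lay mostly above 0. Of the members, 35 of 46 lay above 0 with a median of 0.01, where all genes had a median of 0.03 and 67.6% above 0, and 1 of 46 had an unadjusted p under 0.05. That member was Rps29, a small zinc-binding protein, at −0.06 ± 0.03 (limma adjusted p = 0.371) with 13 of 16 Tg2576 arrays below the wild-type mean. With only replicate numbers 5 to 8, chosen after seeing the data, the split was 22 above and 24 below 0 (median −0.00496). The interquartile range of log2 values within an array had means of 3.67 and 3.69 in the Tg2576 and of 3.59 and 3.61 in the wild-type cortical groups, and with it as a covariate 28 of 46 lay above 0 (median 0.00412). The test of the difference between the regions, transgene effect in hippocampus minus that in prefrontal cortex, called no member (0 of 46, and 0% of genes). At an unadjusted p under 0.05 were 8 of 46, which cannot be called an excess without the share of all genes. In this test 44 of 46 members were below 0 with a median of −0.06, against −0.04 over all genes.

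For PF-04447943 in hippocampus, averaged over both genotypes, 0 of 46 members were called (limma) against 2.34% of genes, and 17 of 46 had an unadjusted p under 0.05 (37.0%, against 21.6% of genes). Leaving out 1 array gave 0 to 4 members called, 4 without replicate 5 of vehicle-treated Tg2576 or replicate 7 of vehicle-treated wild-type mice. Over all genes the count moved widely: 303 were called in all, 1204 with only replicate numbers 1 to 4 and 0 with only 5 to 8, a split chosen after seeing the data. The members leaned upward: 40 of 46 lay above 0 with a median of 0.05, where all genes had a median of 0.03 and 64.6% above 0. Brighter genes leaned upward too. With the filter at the 60th percentile the median was 0.053 over 44 members and 0.043 over all genes, so most of the lean was shared. The large subunit had 19 of 22 above 0, the small subunit 18 of 20 and the paralogs 3 of 4. In wild-type mice 40 of 46 lay above 0 (median 0.06) and in Tg2576 mice 37 of 46 (median 0.04), with 0 of 46 called in either (limma; 0.0386% and 0% of genes) and 6 and 4 members at an unadjusted p under 0.05. The interaction of drug and genotype called no member (0 of 46; 0% of genes), and none had an unadjusted p under 0.05.

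Rpl19, a large-subunit protein that bridges to the small subunit, had the smallest p. In wild-type mice it ranged from 12.90 to 13.01 under vehicle (median 12.96) and from 12.98 to 13.12 under the drug (median 13.05). In Tg2576 mice it ranged from 12.83 to 13.06 (median 12.92) and from 12.86 to 13.18 (median 13.00). The drug-treated arrays were the higher ones, 15 of 16 above the vehicle mean of their genotype, but the groups overlapped, most of all in Tg2576 mice. The difference was 0.10 ± 0.03 (limma adjusted p = 0.0553), or 1.07-fold. Rpl7 differed by 0.12 ± 0.03 (limma adjusted p = 0.0570; 14 of 16 arrays above), Rpl8 by 0.08 ± 0.03 (0.0756), Rps20 by 0.10 ± 0.03 (0.0822) and Rpl22l1 by 0.13 ± 0.05 (0.117). All 16 drug-treated arrays were above the vehicle mean for both Rps20 and Rpl22l1, but the groups overlapped. For Rpl22l1 the highest array was a vehicle one in wild-type (12.49, against 12.41 under the drug) and in Tg2576 mice (12.32 against 12.30). For Rps20 in wild-type mice, vehicle arrays reached 12.93 and drug-treated ones began at 12.80. Among the other members named by rule, the values ran from −0.03 (Rpsa) and 0.00 (Rpl7l1) to 0.08 (Rpl11) and 0.19 ± 0.12 (Rps4l).

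The spread of log2 values within an array, its interquartile range, moved with the drug in hippocampus: its mean was 3.52 ± 0.08 (SD, n = 8) under vehicle and 3.65 ± 0.06 under the drug in wild-type mice, and 3.52 ± 0.12 and 3.60 ± 0.11 in Tg2576 mice. With that spread as a covariate the members' median was 0.02 with 36 of 46 above 0, the median of all genes was −0.01 and 1 gene was called in place of 303. With quantile normalization the members' median was 0.03 with 35 of 46 above 0.

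**Figure D3:**
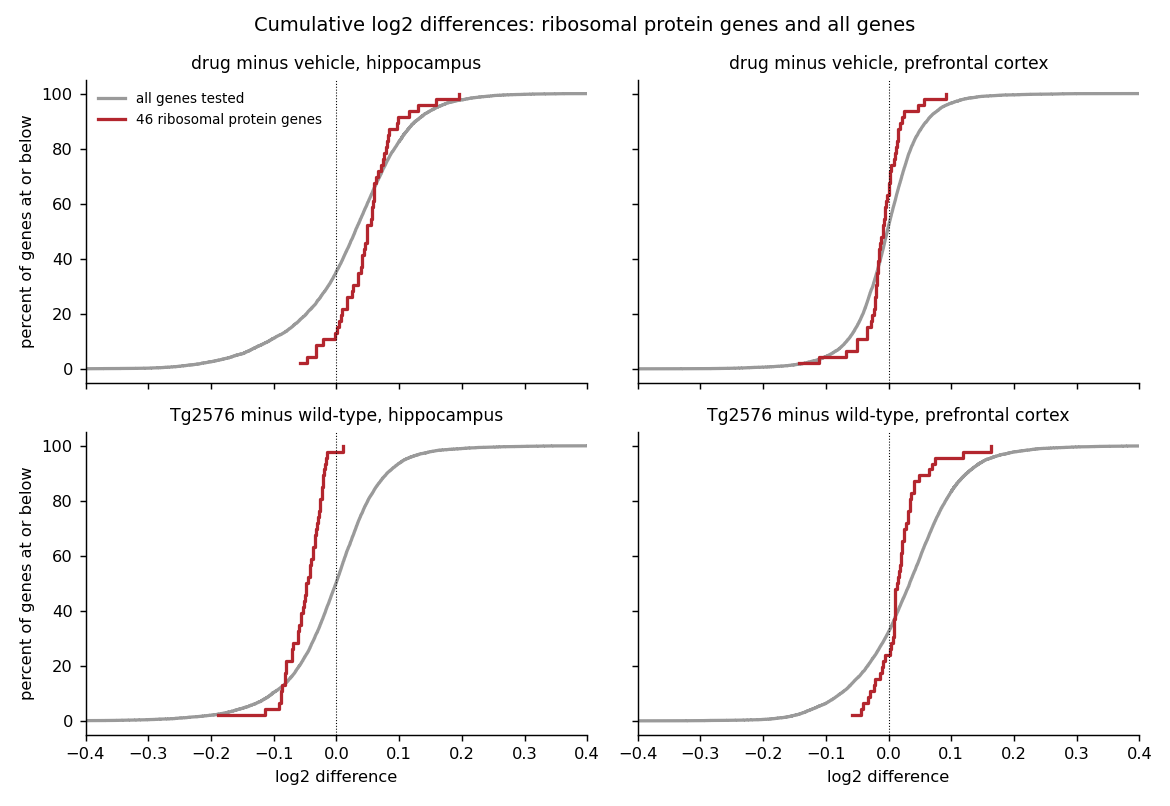
Cumulative distributions of log2 differences for the 46 tested members (red) and all genes tested (grey) in the 4 averaged comparisons; the horizontal axis is cut at −0.4 and 0.4. The red line lies left of 0 for 45 of 46 members in the transgene comparison of hippocampus and right of 0 for 40 of 46 in its drug comparison, and it is steeper than the grey line in all 4 panels.

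In hippocampus cell type markers also lay to one side in these comparisons without being called. In the transgene comparison 7 of 7 oligodendrocyte, 7 of 8 astrocyte, 6 of 6 choroid plexus and 6 of 7 dentate granule markers lay below 0, with medians of −0.17, −0.09, −0.47 and −0.33, while 8 of 8 neuron markers lay above 0 (median 0.05) and 6 of 7 microglia markers (0.03). In the drug comparison 6 of 6 choroid plexus (median −0.39) and 6 of 7 oligodendrocyte markers (−0.04) lay below 0, 5 of 6 cortical layer markers lay above 0 (0.16), and neuron markers were 4 above and 4 below. The summed choroid plexus intensity ran from 1700 to 44000 (median 15900) in vehicle-treated wild-type mice, from 1020 to 31400 (median 5180) in vehicle-treated Tg2576 mice, from 1010 to 39100 (median 4930) in drug-treated wild-type mice and from 758 to 42100 (median 4960) in drug-treated Tg2576 mice. The summed oligodendrocyte intensity ran from 23600 to 51400 over the same 32 arrays, and that of the neuron markers from 64800 to 73100. Their part in the members' shifts was not tested.

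In prefrontal cortex the drug comparison gave 0 of 46 members called, against 0.00774% of genes, and 1 of 46 with an unadjusted p under 0.05. Here 17 of 46 members lay above 0, with a median of −0.01 against 0.00 over all genes. The exception by p was Rpl12, a stalk-base protein of the large subunit read from a dim probe set. It ranged from 7.27 to 7.64 under vehicle and from 7.08 to 7.44 under the drug in wild-type mice, and from 7.18 to 7.66 and from 7.12 to 7.35 in Tg2576 mice. The drug-treated arrays were low, 15 of 16 below the vehicle mean of their genotype, at −0.14 ± 0.05 (limma adjusted p = 0.9997). Rps25 (−0.11 ± 0.05), Rpl6 (−0.05 ± 0.03), Rpsa (−0.07 ± 0.04) and Rps27l (0.06 ± 0.04) followed. Rpl37 had the smallest p in the interaction of drug and genotype there, at 0.34 ± 0.10 (limma adjusted p = 0.9995), where 0 of 46 members and 0% of genes were called and 1 of 46 had an unadjusted p under 0.05. The drug effect in hippocampus minus that in prefrontal cortex called 0 of 46 members against 0.00772% of genes. At an unadjusted p under 0.05 were 8 of 46, which cannot be called an excess without the share of all genes. Above 0 lay 42 of 46 (median 0.06 against 0.04 over all genes). With the filter at the 60th percentile these medians were 0.062 and 0.048.

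The members were steady readings, which sets how small a difference could be seen. Their SD within groups had a median of 0.08, against 0.16 over all genes, and 0.07 against 0.09 where the mean log2 was 12 or more. In the averaged comparisons of one region the median half-width of the 95% interval of a member was 0.06. Taken as one value per array, the median of the 46 members ran from 12.24 to 12.63 over the 64 arrays with an SD of 0.07 within groups. The group means lay between 12.40 and 12.50, and every group overlapped every other.

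**Figure D4:**
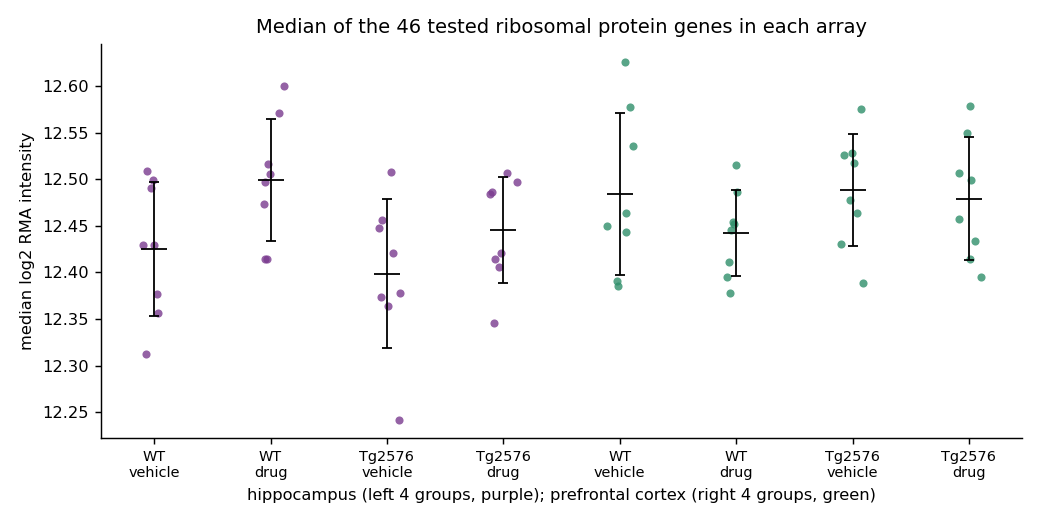
The median log2 RMA intensity of the 46 tested ribosomal protein genes in each array, by region, genotype and treatment; points are arrays and bars are the mean and SD of 8 arrays. The lowest array, at 12.24, is of a vehicle-treated Tg2576 hippocampus and the highest, at 12.63, of a vehicle-treated wild-type prefrontal cortex, and the groups overlap.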

How the data were processed

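Total RNA of microdissected tissue was hybridised to Affymetrix whole-genome mouse arrays. The authors deposited one matrix of linear intensity values, for which the submitters' processing notes name RMA. The sources used here give no settings, scan batches or software version. This method is meant to put all arrays on 1 scale, so a true change shared by most genes may be removed. Array-wide differences remained in the deposited values all the same. The interquartile range of log2 values within an array ran from 3.37 to 3.90. Of 45101 probe sets, 34945 named 1 gene in the platform's annotation, updated through RefSeq gene identifiers, 932 several, 9160 none and 64 were controls. Values were taken to log2. Genes whose mean lay under the 40th percentile of the probe sets were left out of a fit (a log2 of 5.94 for hippocampal fits, 5.91 for cortical ones and 5.93 for those of both regions). limma 3.58.1 in R 4.3.3 fitted the 4 groups of a region together, or all 8 for regional comparisons, with Benjamini-Hochberg adjustment over all genes, for 18 comparisons; tests are two-sided. Figures used matplotlib.

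Tested on simulated data, the fit recovered 66.0% of genes shifted by 0.25 and 93.0% of those shifted by 0.5 for the hippocampal drug comparison of 12961 genes, and 86.0% and 97.0% for the regional comparison of 12950 genes. The simulation drew each gene on its own, without the shared variation and array-wide differences of the real arrays. Its shifts were also larger than most members' differences, so it does not show how well those would be recovered. The number of arrays limits the precision.

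Members and gene lists were chosen with earlier results of these data known. The members named are the 10 largest rises and falls called in a comparison, or the 5 smallest p where fewer than 5 were called, plus paralog pairs, stalk proteins, Rpl5 and Rpl11, Rps6 and Rpsa; Rpl5 and Rplp1 had no probe set of their own. Same-numbered samples were not treated as pairs. Alternatives were other filters, probe set choices, normalizations, covariates, array weights, blocks and leaving out each array.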

Additional observations from a re-analysis of the deposited data

Results flagged for a closer look

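In each group of 8 arrays the gap of the highest and the lowest array to its neighbour was set against the group's range (Dixon's test at its 95% critical value) for the members' median and 9 members shown by array. This flagged 5 of 80 groups, and chance flags about 1 in 20. In drug-treated wild-type hippocampus, Rps27l was 10.21 in replicate 5 against 9.33 to 9.67 in the others, Rps6 was 8.81 in replicate 2 against 8.58 to 8.68, and Rps28 was 13.67 in replicate 4 against 13.59 to 13.63. In drug-treated Tg2576 prefrontal cortex, Rpl19 was 13.17 in replicate 2 against 12.89 to 13.02. In vehicle-treated Tg2576 prefrontal cortex, Rpl27a was 7.83 in replicate 6 against 8.23 to 8.46. The members' median flagged no array.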

How the results depend on the processing

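Of 1984 counts and medians recomputed under the alternatives, 1968 stayed within 1.5 times of the reported count or within the spread between arrays. That spread, an SD of 0.068, was larger than every reported median (at most 0.065 in size), and most reported counts were 0. The tally could therefore show few changes and says little about how stable the medians are. The other 16 were all counts of members called for the drug in hippocampus, 0 as reported. For that comparison 2 members were called with no filter, 2 with a trended robust prior, 3 with array weights, 2 when numbers 1 to 4 and 5 to 8 were fitted as blocks, 4 with only numbers 1 to 4 (chosen after seeing the data), 4 at an adjusted p under 0.10 and 1, Rps4x, lower at −0.13, with the mean of a gene's probe sets; all others were higher. Leaving out 1 array gave 0 to 4: 4 without replicate 5 of vehicle-treated Tg2576 or replicate 7 of vehicle-treated wild-type mice, 2 without replicate 8 of the former, replicate 5 of the latter or replicate 4 of drug-treated Tg2576 mice, and 1 without replicate 7 of vehicle-treated Tg2576 or replicate 1 of either drug-treated group. The labels do not pair the samples. The correlation of deviations between 32 same-numbered hippocampal and cortical arrays ran from −0.26 to 0.53 with 20 over 0.1. Of these hippocampal arrays 18, not every one, correlated best with their own number. Between groups of one region 10 of 48 (hippocampus) and 9 of 48 (prefrontal cortex) did so. Whether same-numbered samples share a mouse cannot be told from these values. With the replicate number as a block 4 members were called, and that block moved no other count of members by over 1.5 times. Leaving out 1 array gave 11 to 14 members called between the regions in vehicle-treated wild-type mice, 25 to 25 over all groups and 0 to 0 in the other comparisons. Among the members named, 2 values reversed: Rps25 for the drug in prefrontal cortex was 0.00297 with only replicate numbers 5 to 8, and Rps9 for the transgene there was −0.14 with the mean of its probe sets. Of their 839 recomputed values 41 lost the call. These include, between the regions, Rpl7 at −0.02 and Rpl41 at −0.03 with the mean of probe sets, and Rps6 at 0.07 in vehicle-treated wild-type mice. With only numbers 1 to 4 the regional split was 10 higher and 14 lower, and with only 5 to 8 it was 18 and 3. Leaving-out aside, the members' median changed sign in 25 of 297 recomputations, over 9 of 18 comparisons: both hippocampus-minus-cortex differences, those within prefrontal cortex other than the drug in wild-type mice, and the interaction in hippocampus. The medians for drug and transgene in hippocampus changed sign in none of these. The cause was not tested.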

Other observations

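Rps2, a small-subunit protein, was the one member with an adjusted p under 0.05 for a correlation between same-numbered hippocampal and cortical arrays. After group means were removed, its Pearson's r over 32 pairs was 0.82 and Spearman's rho 0.80 (permutation p = 1e-05, the smallest the resampling can give, and 2e-05; Benjamini-Hochberg adjusted over the 46 members 0.00046 and 0.00092), and r was 0.75 without the 2 pairs farthest from the median. The next member, Rps9, had an r of 0.54 (adjusted permutation p = 0.0540). The median r was 0.03 over the members and −0.03 over all genes.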
